A study of Homo sapiens with 6 samples.

Results

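The genes described here encode glutathione transferases and 1 glucuronyl transferase, 10 genes in all: GSTP1, GSTM1, GSTM2, GSTT1, MGST1, MGST2, MGST3, GSTO1, GSTK1 and UGT2B17. They were taken by gene symbol from 23844 symbols and were chosen by their FPKM (fragments per kilobase of transcript and per mapped fragment, a length-scaled level) in all 6 libraries, which was already known. Their own values are therefore given as a description, and no test was made on them. All 10 symbols were found. At 1 FPKM or more in at least 1 library, 9 of the 10 were kept among 12337 genes, and GSTT1 was not.

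Glutathione transferases join the tripeptide glutathione to reactive compounds, which makes these more soluble and easier to export. Cytosolic enzymes of the pi, mu, theta and omega classes, a mitochondrial and peroxisomal kappa enzyme, and membrane-bound microsomal enzymes do so by separate protein folds. Glucuronyl transferases of the UGT2B family attach glucuronic acid to steroids and drugs in the endoplasmic reticulum. GSTM1, GSTT1 and UGT2B17 are known for common whole-gene deletions in the human germ line.

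PolyA RNA was sequenced from 2 human B cell lines, DAUDI (Burkitt lymphoma) and DOHH2 (follicular lymphoma). Each line was sequenced as a culture labelled WT, a culture resistant to idelalisib, an inhibitor of the PI3K delta kinase, and a culture resistant to ibrutinib, an inhibitor of the kinase BTK. That gives 6 groups of 1 library each, so no comparison within a line has a replicate check and no p-value is given for one. The labels name no dose, length of selection or clone. Differences are on the log2(FPKM + 1) scale, which shrinks the ratios of genes at low levels. A gene was called higher or lower at a difference of at least 1.

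Both libraries labelled WT resembled each other and the resistant libraries of neither line. Across 12186 genes, their Pearson r with each other was 0.991. Each had an r of 0.722 to 0.737 with the resistant libraries of its own line and 0.723 to 0.740 with those of the other line. The resistant libraries followed their line, with an r of 0.980 within DAUDI, 0.992 within DOHH2 and 0.838 to 0.856 between the lines. These correlations describe the libraries across genes, which are not replicates. A difference from a library labelled WT thus compares the libraries so labelled, and resistance and the identity of the culture cannot be told apart in it. How many of all genes separate the libraries without overlap, as resistant from labelled WT or resistant DAUDI from the rest, was not counted. No such separation is therefore read as particular to a gene named below. Of 8 B cell markers, 7 or 8 stood at 1 FPKM or more in every library, and their summed level ran from 979 to 1628 FPKM. Of 19 markers of other cells, 0 to 4 reached 1 FPKM in a library, and their summed level was at most 11.0 FPKM. Those at 1 FPKM or more were NKG7, CSF1R, ITGAM and PECAM1 in both resistant DAUDI libraries, CD3E in both resistant DOHH2 libraries, and the globin genes HBB and HBA1 in the DOHH2 library labelled WT. Their part in the results was not tested. Absolute depth is unknown without counts. Coverage per FPKM put the depth at 0.936 to 1.42 times that of the DAUDI library labelled WT, with 1.42 in the ibrutinib-resistant DAUDI library.

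The start regions of GSTP1, GSTM1 and GSTM2 are shown because these genes had the clearest differences among the cytosolic enzymes and because GSTM1 and GSTM2 resemble each other. Each runs from 250 bases before the RefSeq start to 50 bases after it (RefSeq, GRCh38.p14, plus strand), and all 3 regions are 300 bases long. The regions are chr11:67583562-67583861 for GSTP1, chr1:109687567-109687866 for GSTM1 and chr1:109667807-109668106 for GSTM2. Capitals mark TGACTCAGC, an element of the AP-1 and antioxidant response type, and GGGCGG, a GC box, on either strand.
GSTP1: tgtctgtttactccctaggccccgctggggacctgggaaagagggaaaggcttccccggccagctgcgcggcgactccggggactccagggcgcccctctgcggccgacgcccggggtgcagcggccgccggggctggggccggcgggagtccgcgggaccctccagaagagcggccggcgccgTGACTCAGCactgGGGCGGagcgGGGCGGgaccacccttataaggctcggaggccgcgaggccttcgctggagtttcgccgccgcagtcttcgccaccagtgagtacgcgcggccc
GSTM1: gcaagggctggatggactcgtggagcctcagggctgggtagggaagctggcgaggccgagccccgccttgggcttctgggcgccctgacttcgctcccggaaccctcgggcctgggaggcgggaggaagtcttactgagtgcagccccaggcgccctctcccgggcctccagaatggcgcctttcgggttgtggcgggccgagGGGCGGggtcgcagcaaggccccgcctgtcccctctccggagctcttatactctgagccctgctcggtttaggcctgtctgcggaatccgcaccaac
GSTM2: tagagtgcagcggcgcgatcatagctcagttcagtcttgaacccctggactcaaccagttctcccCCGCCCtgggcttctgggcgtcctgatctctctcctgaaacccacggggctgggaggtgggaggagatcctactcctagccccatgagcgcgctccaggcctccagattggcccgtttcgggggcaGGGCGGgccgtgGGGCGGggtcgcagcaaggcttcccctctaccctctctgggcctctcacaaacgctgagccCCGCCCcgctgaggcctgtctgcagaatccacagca

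The GSTP1 region held 36 CG pairs, more than 87.3% of 35116 RefSeq promoter regions of that length. It held 1 TGACTCAGC, a motif found in 0.561% of those regions, and 2 GGGCGG, found in 45.0%. The GSTM1 region held 22 CG pairs and 1 GGGCGG, and the GSTM2 region 17 CG pairs and 4 GGGCGG. Over 280 aligned bases, the GSTM1 and GSTM2 regions were 79.3% identical. These matches describe the letters in the window and show neither a bound site nor a cause. RefSeq start regions were matched for 7 of the 10 genes. GSTT1, MGST2 and UGT2B17 are named only.

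GSTP1 (chr11:67351066-67354124 in hg19, the build of the deposited tables) encodes the pi class enzyme, the cytosolic transferase that many tumours hold in large amounts. In DAUDI it stood at 349 FPKM in the library labelled WT, 6.67 FPKM in the idelalisib-resistant library and 8.40 FPKM in the ibrutinib-resistant library. In DOHH2 it stood at 378, 242 and 325 FPKM in the same order. Only the 2 resistant DAUDI libraries were low, and the other 4 libraries did not overlap with them. In bulk RNA, fewer cells with an mRNA and less of it per cell cannot be told apart. The difference from the library labelled WT was -5.51 and -5.22 in DAUDI, against -0.64 and -0.21 in DOHH2. GSTP1 was the highest of the 10 genes in both libraries labelled WT and both resistant DOHH2 libraries, and the third in both resistant DAUDI libraries. In all 6 libraries its FPKM lay above the upper bound deposited beside it, for example 349 FPKM above a bound of 269 in the DAUDI library labelled WT. The bounds themselves had the same order, with an upper bound of 6.52 in the idelalisib-resistant DAUDI library. Within 250 kb of GSTP1, 13 of 24 neighbouring genes stood at 1 FPKM or more in all 6 libraries. Its nearest neighbour downstream, the mitochondrial complex I gene NDUFV1, stayed between 52.5 and 61.7 FPKM. CORO1B, an actin-binding protein gene in the same window, was low only in the resistant DAUDI libraries, as GSTP1 was, at 16.1, 2.45 and 4.02 FPKM in DAUDI and 16.6, 20.3 and 15.8 FPKM in DOHH2. TCIRG1, a proton pump subunit gene on the same chromosome arm and outside that window, stood at 30.6, 1.09 and 1.21 FPKM in DAUDI, while DOHH2 read 28.0, 10.6 and 12.3 FPKM. ACY3, nearer to GSTP1 than CORO1B, differed the other way. It stood at 10.2, 13.8 and 12.4 FPKM in DAUDI and 5.13, 0.0269 and 0.0829 FPKM in DOHH2. POLD4, also in the window, was higher in all 4 resistant libraries, at 16.7, 51.9 and 59.7 FPKM in DAUDI and 19.5, 51.2 and 46.2 FPKM in DOHH2. CORO1B, ACY3 and POLD4 were named after their values were seen and do not stand for the window.

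**Figure D1:**
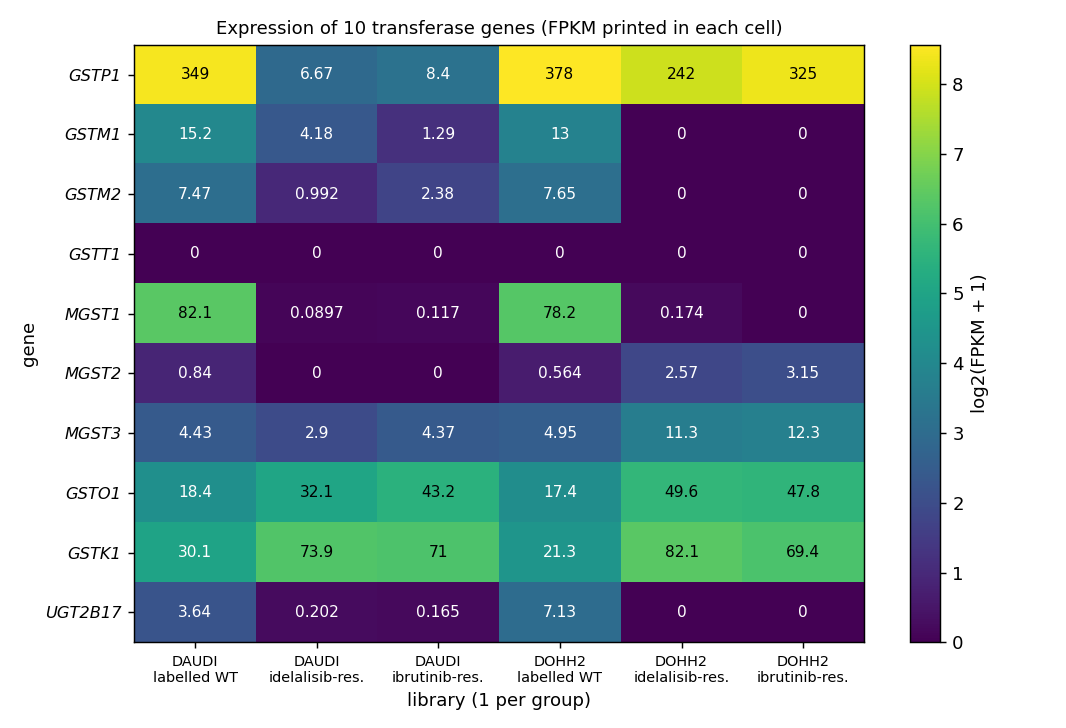
Level of the 10 transferase genes (rows) in the 6 libraries (columns, 1 per group), with FPKM printed in each cell and colour on the log2(FPKM + 1) scale. GSTP1 is low only in the 2 resistant DAUDI libraries, MGST1 is near 0 in all 4 resistant libraries, and GSTT1 is listed at 0 throughout.

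The mu class genes lie side by side on chromosome 1, with GSTM1 at chr1:110230418-110236367 and GSTM2 at chr1:110210644-110226619 (hg19). GSTM1, which conjugates epoxides and other electrophiles, stood at 15.2, 4.18 and 1.29 FPKM in DAUDI in the order labelled WT, idelalisib-resistant, ibrutinib-resistant. In DOHH2 it stood at 13.0 FPKM in the library labelled WT and was listed at 0 in both resistant libraries. All 4 resistant libraries were below both libraries labelled WT, and the DAUDI differences were -1.64 and -2.82. GSTM2, a close relative, stood at 7.47, 0.992 and 2.38 FPKM in DAUDI, with differences of -2.09 and -1.32, the latter -0.76 and under the threshold with a pseudocount of 5. In DOHH2 it stood at 7.65 FPKM and was listed at 0 in both resistant libraries. A value listed at 0 has no ratio, and without counts it sets no limit on the true level.

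Reads of these genes cannot always be assigned to 1 copy. GSTM1 and GSTM2 transcripts were 93.6% identical in the GENCODE transcripts, and 58.1% of the 50-base windows of GSTM1 and 46.5% of those of GSTM2 also occurred in another mu class copy. The split between them is therefore uncertain, and the sum of GSTM1, GSTM2, GSTM4 and GSTM5 is given beside it. The sum was 29.6, 9.73 and 10.6 FPKM in DAUDI, while DOHH2 read 27.7, 0 and 0 FPKM. The DAUDI differences of the sum were -1.51 and -1.40. Between both resistant DAUDI libraries GSTM1 alone differed by -1.18, lower with ibrutinib, while the sum differed by 0.12, so that this difference in GSTM1 did not hold for the copies together. GSTM4, the mu class gene on the far side of GSTM2, stood at 7.00, 4.56 and 6.96 FPKM in DAUDI, while DOHH2 read 6.99, 0 and 0 FPKM. GSTM4 made up 65.4% of the sum in the ibrutinib-resistant DAUDI library against 23.6% in the library labelled WT. GSTM1, GSTM2 and GSTM4 were thus listed at 0 together in resistant DOHH2 cells. Of 15 neighbours of GSTM1 within 250 kb, 4 stood at 1 FPKM or more in all 6 libraries, among them AMPD2 at 6.96 to 13.3 FPKM and GNAI3 at 14.1 to 18.6 FPKM on the GSTM4 side. On the other side EPS8L3 was listed at 0 in all 6 libraries, and CSF1 was under 1 FPKM in each, at 0.00909 and 0 FPKM in resistant DOHH2. AHCYL1, from the list of neighbours but outside that window, stood at 25.6, 25.1 and 47.9 FPKM in DAUDI. In DOHH2 it stood at 28.2, 26.6 and 28.4 FPKM.

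**Figure D2:**
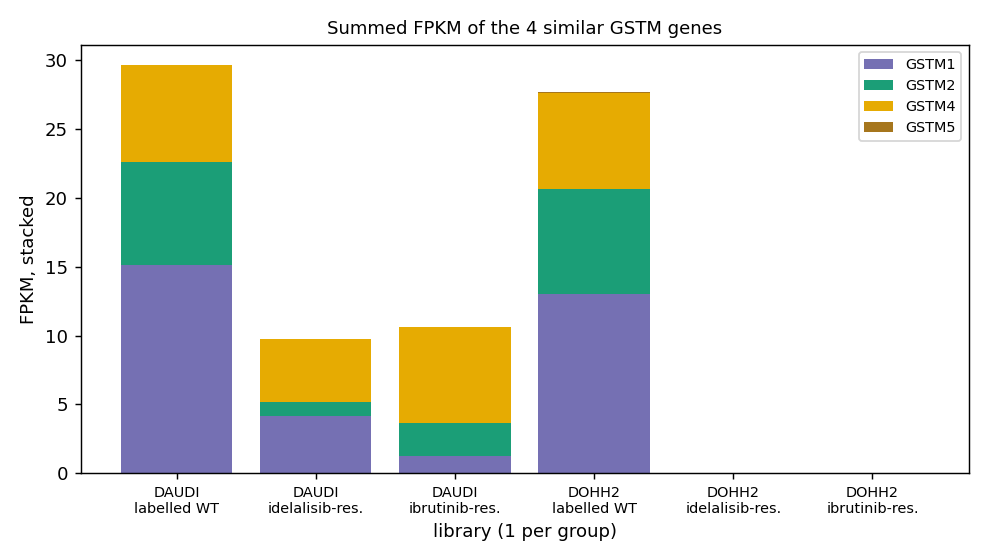
Stacked FPKM (vertical axis) of GSTM1, GSTM2, GSTM4 and GSTM5 in each library (horizontal axis, 1 per group). The summed level is 29.6 and 27.7 FPKM in the libraries labelled WT, 9.73 and 10.6 FPKM in resistant DAUDI libraries, and 0 in both resistant DOHH2 libraries.

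GSTT1, the theta class enzyme that handles small halogenated compounds, was listed at 0 in all 6 libraries (chr22:24376139-24384284, hg19), so no comparison could be made. Of 16 neighbours within 250 kb, 8 stood at 1 FPKM or more in all 6 libraries. CABIN1, a calcineurin inhibitor gene, stood at 6.85 to 12.6 FPKM, and DDT, a tautomerase gene, at 48.4 to 76.1 FPKM. The related genes GSTT2 and GSTT2B were listed at 0 in 5 libraries and under 1 FPKM in the ibrutinib-resistant DAUDI library.

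The microsomal enzymes differed among themselves. MGST1 (chr12:16500076-16530123, hg19), a membrane transferase that also reduces lipid peroxides, stood at 82.1 FPKM in the DAUDI library labelled WT and 78.2 FPKM in the DOHH2 library labelled WT. The resistant libraries held 0.0897 and 0.117 FPKM in DAUDI and 0.174 and 0 FPKM in DOHH2, idelalisib first. No resistant library came near a library labelled WT, and the 3 differences with a value above 0 were -6.25, -6.22 and -6.08. One of its 9 listed isoforms carried 97.2% and 96.9% of the MGST1 level in the libraries labelled WT.

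MGST2, which can also form leukotriene C4, stood at 0.840 FPKM in the DAUDI library labelled WT and was listed at 0 in both resistant DAUDI libraries. In DOHH2 it stood at 0.564, 2.57 and 3.15 FPKM, with differences of 1.19 and 1.41. The DAUDI differences, -0.88 for both drugs, did not pass the threshold and rest on values listed at 0. The DOHH2 differences fell under it with a pseudocount of 5 (0.44 and 0.55), and the idelalisib one was 0.95 against the DAUDI library labelled WT. The locus of MGST2 (chr4:140586922-140661899, hg19) overlaps that of MAML3, a Notch coactivator gene. MAML3 was listed at 0 in both libraries labelled WT and stood at 3.005 and 3.40 FPKM in the resistant DAUDI libraries and 4.18 and 3.10 FPKM in the resistant DOHH2 libraries, idelalisib first. The part of this overlap in the MGST2 values was not tested. MGST3 (chr1:165600110-165625372, hg19), the third microsomal enzyme, stood at 4.43, 2.90 and 4.37 FPKM in DAUDI, while DOHH2 read 4.95, 11.3 and 12.3 FPKM. Both resistant DOHH2 libraries were the highest, with differences of 1.05 and 1.16, and the DAUDI differences were -0.48 and -0.02. In both resistant DOHH2 libraries the MGST3 level lay above the upper bound deposited beside it, at 11.33 over 11.11 and 12.33 over 11.95 FPKM. In the other 4 libraries it lay inside its bounds. Under median-of-ratios scaling, the idelalisib difference in DOHH2 was 0.90, and under upper quartile scaling 0.97. With a pseudocount of 5 both DOHH2 differences were under the threshold, at 0.71 and 0.80.

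GSTO1 and GSTK1 had higher levels in all 4 resistant libraries than in those labelled WT. GSTO1 (chr10:106013952-106027222, hg19), the omega class enzyme with thioltransferase activity, stood at 18.4, 32.1 and 43.2 FPKM in DAUDI, while DOHH2 read 17.4, 49.6 and 47.8 FPKM. All 4 resistant libraries were above both libraries labelled WT. Against the library labelled WT of the same line, the differences were 0.77 and 1.19 in DAUDI and 1.46 and 1.41 in DOHH2. GSTK1 (chr7:142960522-142966222, hg19), the kappa class enzyme of mitochondria and peroxisomes, stood at 30.1, 73.9 and 71.0 FPKM in DAUDI, while DOHH2 read 21.3, 82.1 and 69.4 FPKM. Its differences were 1.27 and 1.21 in DAUDI and 1.90 and 1.66 in DOHH2. All 4 resistant libraries again lay above both libraries labelled WT, and the share of all genes that do so was not counted. In the ibrutinib-resistant DAUDI library the median of all genes lay at 0.18 against the library labelled WT. It lay at -0.01 under median-of-ratios scaling, where GSTO1 and GSTK1 differed by 0.95 and 0.97 and so fell under the threshold.

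**Figure D3:**
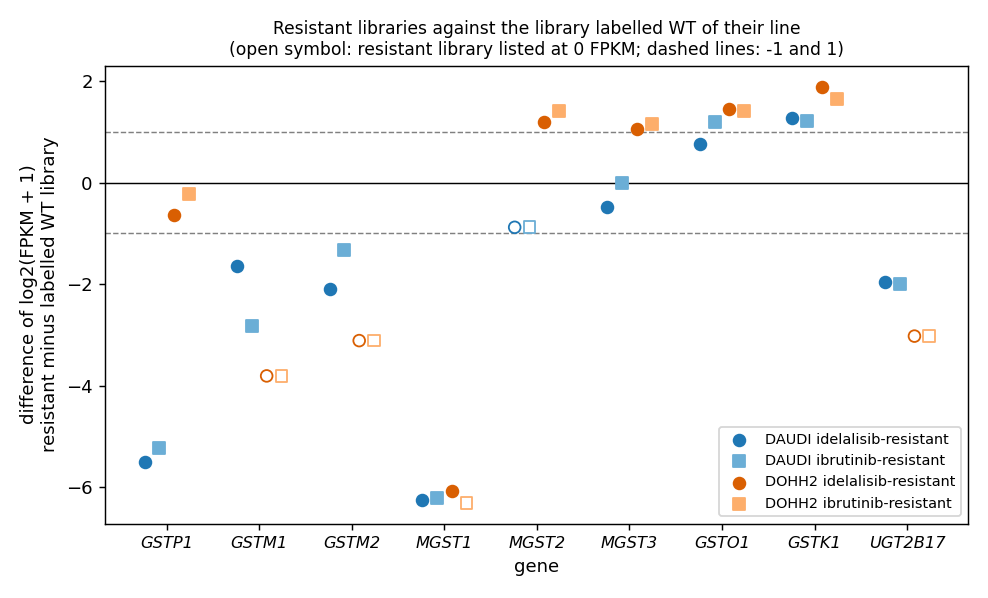
Difference of log2(FPKM + 1) between each resistant library and the library labelled WT of its line (vertical axis) for the 9 genes kept (horizontal axis), with open symbols where the resistant library is listed at 0 and dashed lines at -1 and 1. GSTP1 differs by over 5 in DAUDI only, MGST1 by over 6 in the 3 comparisons with a value above 0, and GSTK1 by 1.21 to 1.90 upward.

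UGT2B17 (chr4:69402903-69434245, hg19), which glucuronidates androgens and some drugs, stood at 3.64, 0.202 and 0.165 FPKM in DAUDI. In DOHH2 it stood at 7.13 FPKM in the library labelled WT and was listed at 0 in both resistant libraries. All 4 resistant libraries were below both libraries labelled WT, and the DAUDI differences were -1.95 and -1.99. With a pseudocount of 5 these were -0.73 and -0.74, under the threshold. UGT2B15, the neighbouring relative, stood at 0.738, 0.0524 and 0.0319 FPKM in DAUDI, while DOHH2 read 1.57, 0 and 0 FPKM. Its level was 19.4% to 26.0% of that of UGT2B17 in the 4 libraries where both were above 0. The transcripts of both genes were 93.5% identical, and 27.5% of the 50-base windows of UGT2B17 occurred in UGT2B15, so the division of reads between them is uncertain. Of 4 neighbours of UGT2B17 within 250 kb, 1 stood at 1 FPKM or more in all 6 libraries and 1 was listed at 0 in all 6. The former was YTHDC1, an RNA-binding protein gene, at 9.44 to 16.2 FPKM.

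Counted over the 9 genes kept, the idelalisib-resistant DAUDI library had 1 gene higher (GSTK1), 5 lower and 3 neither against the library labelled WT. There 31.1% of all 12337 genes passed the threshold, 15.3% higher and 15.8% lower. The ibrutinib-resistant DAUDI library had 2 genes higher and 5 lower, where 34.9% of all genes passed, 20.2% higher and 14.6% lower. Of those passing genes 58.1% were higher, or 47.7% under median-of-ratios scaling.

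In DOHH2 the idelalisib-resistant library had 4 genes higher and 4 lower, where 31.8% of all genes passed, 16% higher and 15.7% lower. The ibrutinib-resistant library also had 4 higher and 4 lower, where 30.6% passed, 14.9% higher and 15.7% lower. Both drugs were set against 1 shared control in each line. Between both drugs, 1 of 9 genes (GSTM1) was lower with ibrutinib in DAUDI, where 3.5% of all genes passed, 2.2% higher and 1.31% lower. Of those passing genes 62.7% were higher, or 50.6% under median-of-ratios scaling. In DOHH2, 0 of 9 genes differed between the drugs, where 1.08% of all genes passed, 0.665% higher and 0.413% lower. Between both libraries labelled WT, 0 of 9 differed, where 1.09% passed, 0.608% higher and 0.486% lower, and the largest difference was 0.81 for UGT2B17. The 10 genes were chosen with these differences in view, so nothing is read from their counts.

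The make-up of the summed level of the 9 glutathione transferase members differed with these genes. The 9 glutathione transferase genes summed to 508, 121 and 131 FPKM in DAUDI and to 521, 387 and 458 FPKM in DOHH2. Other glutathione transferase genes are not in this sum, such as GSTZ1 at 15.3 and GSTO2 at 10.9 FPKM in the idelalisib-resistant DAUDI library. The shares below thus refer to these 9 genes only. GSTP1 made up 68.8% of the sum in the DAUDI library labelled WT but 5.52% and 6.42% in the resistant ones. In DOHH2 its share was 72.5%, 62.4% and 71.0%. GSTK1 and GSTO1 together made up 87.7% and 87.3% of the sum in resistant DAUDI cells, and 34.0% and 25.6% in resistant DOHH2 cells.

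**Figure D4:**
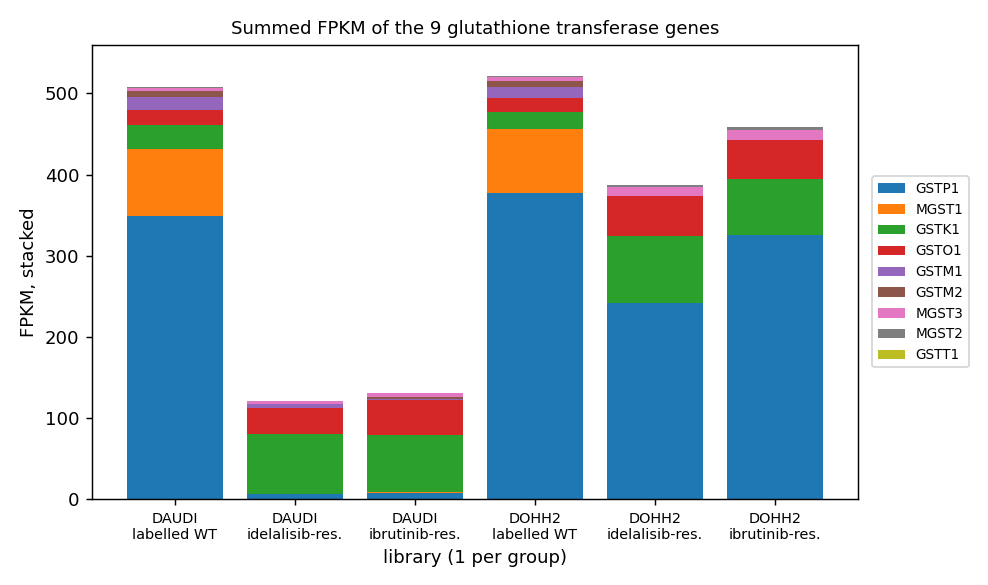
Stacked FPKM (vertical axis) of the 9 glutathione transferase genes in each library (horizontal axis, 1 per group). GSTP1 is the largest share in both libraries labelled WT and both resistant DOHH2 libraries, while GSTK1 and GSTO1 make up 87.7% and 87.3% of the sum in the resistant DAUDI libraries.

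Genes whose levels over the 6 libraries were most like those of a member were taken by Pearson r of log2(FPKM + 1), among 9402 genes at 5 FPKM or more in at least 1 library. The libraries share 2 lines and fall into clusters, so r is given as a description. It follows the shape over the libraries and does not take in the size of the differences. For GSTP1 these were ZNF770, ANAPC2 and GOLGA8A, with 51 genes at an r of 0.99 or more. ZNF770 ran only from 6.84 to 21.7 FPKM and ANAPC2 from 5.99 to 7.95 FPKM, far narrower than GSTP1. GOLGA8A stood at 16.7, 0.0325 and 0.0471 FPKM in DAUDI, while DOHH2 read 18.5, 12.6 and 18.0 FPKM. For MGST1 they were GPR15, L1CAM and PLBD1, and 281 genes had an r of 0.99 or more with it. For GSTM1 they were CBR1, METTL13 and RPP38, with 8 genes at 0.99 or more. METTL13 ran only from 6.36 to 10.4 FPKM and RPP38 from 7.53 to 11.7 FPKM. CBR1, a carbonyl reductase gene, stood at 6.96, 2.34 and 0.520 FPKM in DAUDI, while DOHH2 read 5.36, 0 and 0 FPKM. For UGT2B17 they were EIF4A3, SPP1 and GJB6, with 40 genes at 0.99 or more. EIF4A3 stayed between 23.7 and 83.1 FPKM.

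Other genes of the pathway were compared between resistant DOHH2 and resistant DAUDI libraries, a contrast whose fit leaves out the libraries labelled WT. Genes were kept on all 6 libraries, so those labelled WT still had a part in which genes were tested. On the 4 fitted libraries alone, 11523 genes would be kept. Both resistant libraries of a line served as its replicates, with the drug as a block, in limma with Benjamini-Hochberg adjustment (1 residual degree of freedom). At an adjusted p under 0.05, 1914 of 12337 genes passed, or 15.5%, with 868 (7.04%) higher and 1046 (8.48%) lower in DOHH2. The lists were chosen with earlier results of these data known, and some genes are named for the size of their differences. Their adjusted p-values are therefore given as a description and are not support for any single gene. A list of other glutathione transferases and related genes, PTGES and ALOX5AP among them, had 7 genes tested. Of these 1 was higher in DOHH2, 3 were lower and 3 did not pass, with a median difference of -0.63 against -0.04 over all genes. GSTA4, which conjugates products of lipid peroxidation, was higher by 1.59 (SE 0.164, adjusted p = 0.0275 in limma, mean 0.781 FPKM in resistant DAUDI and 4.33 FPKM in resistant DOHH2). GSTO2, the second omega class gene, was lower, with a difference of -2.84 (SE 0.207, adjusted p = 0.0166 in limma, mean 9.06 and 0.378 FPKM). The other 2 counted as lower were GSTM4 and PTGES, a prostaglandin E synthase gene of the microsomal family. Both were at a listed 0 in the resistant DOHH2 cells, where no spread could be measured, so no p is given for them. PTGES stood at 3.37 and 8.56 FPKM in the resistant DAUDI libraries. GSTZ1, GSTCD and ALOX5AP did not pass. A fit of 3 libraries cannot keep the drug block, so it is set beside the fit of all 4 without a block. There 1 of the 7 was higher and 4 were lower (1610 and 1752 of all 12337 genes). Without a block and without either resistant DOHH2 library, 0 of the 7 passed. DOHH2 was then 1 library, assumed to vary like DAUDI.

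Against the libraries labelled WT, GSTZ1, the zeta class enzyme of tyrosine breakdown, was at 5.53, 15.3 and 18.2 FPKM in DAUDI, while DOHH2 read 6.80, 18.9 and 18.1 FPKM. All 4 resistant libraries lay above both libraries labelled WT. GSTO2 stood at 0.0956, 10.9 and 7.27 FPKM in DAUDI and between 0.248 and 0.389 FPKM in DOHH2, so it was high only in resistant DAUDI libraries.

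Of 15 genes of glutathione synthesis and breakdown, 0 passed higher and 1 passed lower in resistant DOHH2 libraries in limma. When genes were kept on the 4 fitted libraries, 0 passed higher and 4 lower of 12 (1548 and 1833 of all 11523 genes). Against the DAUDI library labelled WT, 4 of 15 were higher and 3 lower with idelalisib (15.3% and 15.8% of all genes), and 5 higher and 3 lower with ibrutinib (20.2% and 14.6%). In DOHH2, 3 were higher and 4 lower with idelalisib (16% and 15.7%), and 2 higher and 4 lower with ibrutinib (14.9% and 15.7%). GGT7, a gamma-glutamyl transferase gene, stood at 5.61, 0.0110 and 0.0563 FPKM in DAUDI, while DOHH2 read 6.04, 0 and 0.0122 FPKM. CHAC1, of the same list, differed the other way, at 0.521, 10.6 and 17.1 FPKM in DAUDI and 3.57, 12.9 and 4.42 FPKM in DOHH2. Of 20 glutathione peroxidase, peroxiredoxin and thioredoxin genes tested, 1 was higher and 4 were lower in resistant DOHH2. GPX1, the main cytosolic glutathione peroxidase gene, stood at 55.9, 0.0843 and 0.149 FPKM in DAUDI, while DOHH2 read 55.8, 25.2 and 25.8 FPKM, a difference of 4.57 between resistant lines (SE 0.174, adjusted p = 0.0119 in limma). PRDX6, a peroxiredoxin gene, was lower in DOHH2, with a difference of -1.71 (SE 0.122). No p is given for it, since it was named after its values were seen.

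Of 12 genes of the NRF2 response tested, 2 were higher and 1 was lower in resistant DOHH2 libraries in limma. AKR1B1, an aldose reductase gene, stood at 15.9, 0 and 0.0167 FPKM in DAUDI, while DOHH2 read 11.5, 55.9 and 52.0 FPKM. HMOX1, the haem oxygenase gene, stood at 44.3 and 60.6 FPKM in the libraries labelled WT, DAUDI first, and at no more than 0.0430 FPKM in the resistant libraries. Of 12 other glucuronyl, sulfo and methyl transferase and cofactor genes, 1 was higher in resistant DOHH2 and 0 lower. That gene was SULT1A1, a phenol sulfotransferase, with a mean of 3.01 FPKM in resistant DAUDI and 17.6 FPKM in resistant DOHH2 (adjusted p = 0.0435 in limma). With a pseudocount of 0.1, 0 of these 12 genes passed in either direction, SULT1A1 included, beside 852 higher and 1116 lower of all 12337 genes. Of 14 phase I oxidation genes tested, 2 were higher and 1 was lower.

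Several of these list counts differed with the filter. The count over all genes differed with the setting too, so the counts here and in the next paragraph are not read as results about the lists. With genes kept on the 4 fitted libraries, 3381 of 11523 genes passed, 1548 higher and 1833 lower in resistant DOHH2. Of 19 peroxidase, peroxiredoxin and thioredoxin genes, 4 then passed higher and 4 lower. Of 9 NRF2 genes 2 passed higher and 3 lower, of 11 other transferase genes 3 and 0, and of 13 phase I genes 2 and 4. Fits without 1 library had no drug block. The fit of all 4 libraries without a block passed 3362 of 12337 genes, 1610 higher and 1752 lower. It passed 1 higher and 4 lower of 15 glutathione synthesis genes, and 5 and 5 of 20 on the peroxidase list. It also passed 2 and 1 of 12 NRF2 genes, 3 and 0 of 12 other transferase genes and 3 and 1 of 14 phase I genes. Beside it, without either resistant DOHH2 library 0 passed of glutathione synthesis and of the other transferases, and 1 passed higher and 0 lower of the NRF2 list. The peroxidase list then had 1 higher and 0 lower without the idelalisib-resistant library, and 1 and 1 without the ibrutinib-resistant one. Phase I had 2 higher and 1 lower, and 3 and 1.

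Without the idelalisib-resistant DAUDI library, 1 passed higher and 4 lower of glutathione synthesis, 3 and 4 of the peroxidase list, 2 and 3 of the NRF2 list, 1 and 1 of the other transferases and 1 and 3 of phase I. Without the ibrutinib-resistant DAUDI library these were 0 and 3, 3 and 4, 1 and 2, 2 and 1, and 1 and 2.

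Besides GSTM1, GSTT1 and UGT2B17, 4 genes of a list of common germline deletions were kept. Of these, 2 passed higher and 2 lower in resistant DOHH2, where 7.04% and 8.48% of all genes did. The fit without a drug block gave the same counts, and 1 in each direction without either resistant DOHH2 library. With a pseudocount of 0.1, and also under median-of-ratios scaling, 1 of the 4 passed higher and 2 lower. SULT1A1, named above among the other transferases, is on this list too. These counts are not read as a result about the list. APOBEC3B, a cytidine deaminase gene, stood at 0.394, 11.5 and 12.5 FPKM in DAUDI, while DOHH2 read 0.393, 0.829 and 0.602 FPKM (adjusted p = 0.0143 in limma between the resistant lines). No genotype was measured, so the copy number behind any value listed at 0 was not tested.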

How the data were processed

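PolyA RNA of 6 cultures was sequenced with a directional kit, per the labels' protocols. The submitters' processing notes name bcl2fastq, cutadapt, TopHat2, Cufflinks and hg19, with versions not given in the sources used here. Deposited values are FPKM per RefSeq isoform, which the authors scaled to isoform length and to mapped fragments, and, per the file headers, a coverage signal and bounds of the FPKM. FPKM were summed per gene symbol (23844 genes; 10 with a failed estimate and 528 isoforms without a name were left out of tests), and log2(FPKM + 1) was taken. Genes at 1 FPKM or more in at least 1 of 6 libraries were kept (12337). With 1 library per group, differences carry no test.

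limma 3.58.1 was fitted to the 4 resistant libraries (line, drug as a block, empirical Bayes with trend, two-sided). The first fit, with the filter over 6 libraries, passed 1914 genes and is the one reported. A filter on the 4 fitted libraries, tried after that count was seen, passed 3381. Both cultures of a line stand in as replicates, and the labels name no separate cultures, so the p-values measure only the spread between these libraries. Tested on simulated data, the fit returned the sizes of changes, but how many changed and unchanged genes passed depended on how variances were drawn: more unchanged genes passed than the threshold allows under one draw, and no changed gene passed under the other. The calls are therefore weak evidence for any single gene.

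The members and gene lists were chosen with earlier results of these data known. The text may name the 10 members, the marker genes, and the 3 genes most like GSTP1, GSTM1, MGST1 and UGT2B17. Genes at 1 FPKM or more may be named from 4 lists: other glutathione transferases and related genes, other transferases, deletable genes and neighbours. Each other list may give up to 4 genes with the largest differences. Some of these are left out. PRDX6, CORO1B, ACY3, POLD4, EPS8L3, CSF1, GSTM5, GSTT2, GSTT2B and MAML3 were named after their values were seen. Other pseudocounts (0.1 and 5), filters, scalings, isoform choices and left-out libraries were tried.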

Additional observations from a re-analysis of the deposited data

Results flagged for a closer look

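The mean difference of the resistant libraries from the library labelled WT had opposite signs in DAUDI and DOHH2 for MGST2 and MGST3. DOHH2 minus DAUDI, it was 2.18 for MGST2 and 1.35 for MGST3 on the log2(FPKM + 1) scale. This difference between the lines was not tested, since each group is 1 library. The DAUDI differences did not pass the threshold, at -0.88 for MGST2 with both drugs, from values listed at 0, and at -0.48 and -0.02 for MGST3.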

How the results depend on the processing

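Of 323 member differences recomputed under alternatives that could change them, 304 stayed on the same side of the threshold, 14 no longer passed, 4 newly passed and 1 reversed: GSTM1 between both resistant DAUDI libraries, at 0.12 with the GSTM copies summed. With a pseudocount of 5 the genes past the threshold numbered 1825 and 2185 in idelalisib- and ibrutinib-resistant DAUDI against the library labelled WT (3836 and 4301 with a pseudocount of 1), 1938 and 1841 in DOHH2 (3921 and 3775), 177 and 70 between both drugs in DAUDI and DOHH2 (432 and 133), and 85 between both libraries labelled WT (135). With a pseudocount of 0.1 the last 3 were 817, 350 and 295. In limma, 1914 genes passed; without a drug block 3362 did, and with the filter on the 4 fitted libraries, added after seeing the data, 3381. With no filter 0 passed, beside 4763 at an unadjusted p under 0.05 and no other tool run. Leaving out 1 library also drops the drug block, since 3 libraries leave it no residual degree of freedom, so these fits stand beside 3362. They gave 742 to 2985 genes: 775 without the idelalisib-resistant and 742 without the ibrutinib-resistant DOHH2 library, and 2985 without the idelalisib-resistant DAUDI library. The line with 1 library left is assumed to vary like the other. The causes were not tested. Without counts, absolute depth is unknown, so a value listed at 0 has no limit of detection.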
